A study of Mus musculus with 18 samples.

Results

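When the peaks of 8 chimeric Foxa proteins were merged into 24999 regions, 529 (2.12%) carried a peak of every chimera, and these shared regions are described here. The cells were fibroblasts on the way to hepatocyte-like cells (iHep). The regions were chosen by the presence of a deposited peak in each of the 8 lists, with peaks merged when they overlapped by 1 bp or more. All counts of presence, ranks and widths below come from the same peak calls and are given as descriptions without a test. The study mapped binding by chromatin immunoprecipitation sequencing (ChIP-seq) in 9 libraries, each with an input library that was not analysed here. Every library came from embryonic fibroblasts of C57BL/6 mice, taken at 13.5 days post coitum and brought to the iHep stage with Hnf4alpha among the introduced factors.

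The chimeras joined Foxa3 to Foxa1 or Foxa2. Foxa1-N3 and Foxa2-N3 are Foxa1 and Foxa2 that carry the N-terminal domain of Foxa3, and Foxa3-C1 and Foxa3-C2 are Foxa3 with the C-terminal domain of Foxa1 or Foxa2. These 4 share the Foxa3 N-terminal domain and were precipitated with a Foxa3 antibody. Foxa1-C3 and Foxa2-C3 carry the Foxa3 C-terminal domain, and Foxa3-N1 and Foxa3-N2 are Foxa3 with the N-terminal domain of Foxa1 or Foxa2. These 4 share the Foxa3 C-terminal domain and were precipitated with a Foxa1 antibody (Foxa1-C3, Foxa3-N1) or a Foxa2 antibody (Foxa2-C3, Foxa3-N2). Terminal layout and antibody can therefore not be told apart. Each construct had 1 library, and nothing in the labels tells of replicate cultures or clones, of the cells' own Foxa proteins or of how far the cells had changed. The remaining library, 4a3_DA1, has labels that disagree on its construct and name an Hnf4alpha antibody, and it was used only as a list to compare with.

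Foxa proteins bind DNA through a forkhead domain that resembles the fold of a linker histone, and they are known as pioneer factors because they can reach sites in closed chromatin. In the developing liver Foxa1 and Foxa2 are needed for the liver program to begin, and Foxa3 takes part in the upkeep of liver genes later. Hnf4alpha is a nuclear receptor that acts with them at many liver enhancers. The forkhead domain is much alike in the 3 proteins, while the N- and C-terminal domains around it differ more.

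The name of the set held at base level. In all 529 shared regions at least 1 base lay under a peak of every list, so none was a chain of peaks that touched only their neighbours. The stretch common to the 8 lists had a median of 300 bp, with quartiles of 264 and 354 bp and a range from 44 to 830 bp. The midpoints of the strongest peak of each list lay a median of 80 bp apart from first to last, and within 200 bp in 494 regions. Of the 529 regions 519 held exactly 1 peak of each list, and the other 10 held up to 11 peaks. Whole regions were 502 to 1708 bp wide with a median of 697 bp, against 646 bp for regions of exactly 7 lists and 458 bp for all regions. A wider region is formed wherever more lists are merged, so this order is partly built into the measure.

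The shortest list set the limit of the set. The lists held 956 peaks (Foxa1-N3) to 16543 peaks (Foxa3-N2), and the shared regions took up 55.6% of the Foxa1-N3 list but 3.23% of the Foxa3-N2 list and 3.87% of the Foxa2-C3 list. Between these lay Foxa3-C2 at 14.7%, Foxa1-C3 at 11.0%, Foxa2-N3 at 10.1%, Foxa3-C1 at 7.06% and Foxa3-N1 at 6.98%. A single missing list was nearly always that of Foxa1-N3: of the 1037 regions of exactly 7 lists, 882 (85.1%) lacked it, 75 lacked Foxa1-C3, 39 lacked Foxa3-C2, and 3 to 15 lacked each of the other 5. Without Foxa1-N3 the set would hold 1411 regions. Sequencing depth is unknown, since the files list peaks and not reads, and its part in these list lengths was not tested.

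Shared regions made up most of the strongest peaks of each list. By the authors' score, the peaks of rank 100 or better lay in a shared region in 87.4% of cases in Foxa1-N3 (90 of 103, with ties), 85% in Foxa2-C3, 83% in Foxa2-N3, 80% in Foxa3-N1, 74% in Foxa1-C3, 71% in Foxa3-C2, 67% in Foxa3-N2 and 64% in Foxa3-C1. In all, 342 regions held a peak of rank 100 or better in some list; 210 of them (61.4%) were shared by the 8 lists and 78 were found in exactly 7. Further down the share fell steeply, to between 24% and 51% of the peaks ranked 401 to 500 and between 11% and 22% of those ranked 901 to 1000 in the 7 longer lists. The strongest peak of each list lay in a shared region, and 148 shared regions ranked 956 or better in every list.

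**Figure D1:**
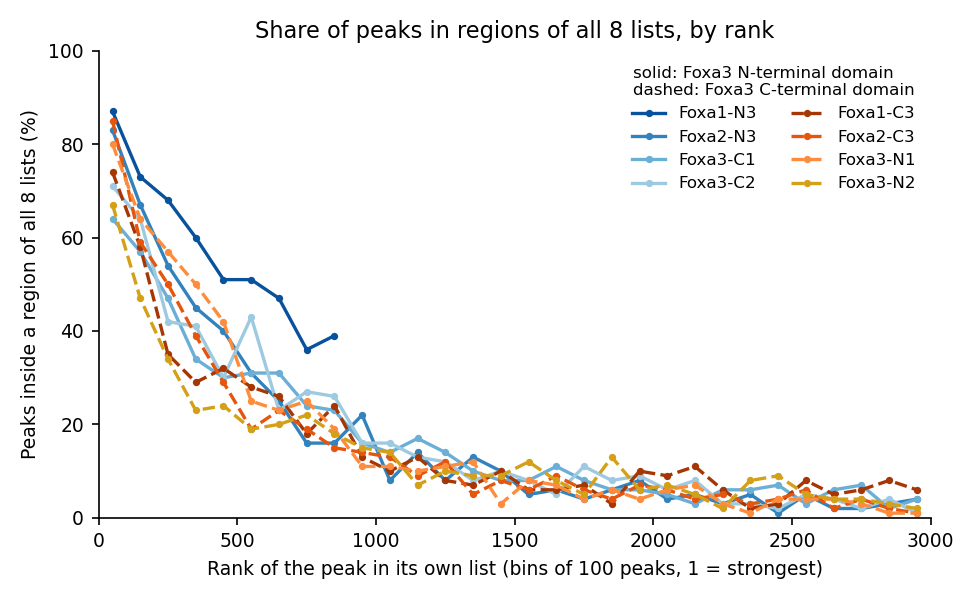
Share of peaks (%) that lie in a region of all 8 lists, in bins of 100 peaks ordered by the authors' score, with 1 line per construct (solid for the Foxa3 N-terminal domain, dashed for the Foxa3 C-terminal domain). The share runs from 64 to 87% in the first bin of 100 and from 11 to 22% in the bin ending at rank 1000, and the line of Foxa1-N3, the shortest list, ends early and lies above the others.

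Not all shared regions were strong. Their median rank in the full list was lowest in Foxa1-N3, at 361, and highest in Foxa3-N2, at 859. Relative to list length this was 3.67% of the way down the Foxa2-C3 list, 5.19% in Foxa3-N2, 5.55% in Foxa3-N1, 8.03% in Foxa3-C1, 8.41% in Foxa2-N3, 12.9% in Foxa1-C3, 15.1% in Foxa3-C2 and 37.8% in Foxa1-N3. In 252 of the 529 regions the peak was in the stronger 50% of every list, and in 49 at least 1 peak was in the weakest 10% of its list, 36 of them by the Foxa1-N3 peak.

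Just inside the rule stood regions with a marginal peak in 1 list. At chr1:136660320-136661227 the Foxa2-N3 peak was the weakest of its list (rank 5230, score 5.23), and this region also had the shortest common stretch, 44 bp. The shared region ranked last in Foxa1-N3, chr9:102872572-102873662, stood at 950 of 956 there (score 5.91), while the last in Foxa1-C3, chr3:29942946-29943584, stood at 4773 of 4807. In Foxa3-C1, Foxa3-N2 and Foxa2-C3 the last shared regions ranked 6275, 14147 and 12470, with scores of 11.3, 11.3 and 11.0, and lay further from the ends of their lists. Just outside the rule were regions that lacked only Foxa1-N3. The one with the best mean rank, chr5:68381355-68382234, ranked 13 in Foxa1-C3, 14 in Foxa3-C1, 39 in Foxa3-N2, 41 in Foxa2-N3, 55 in Foxa3-C2, 79 in Foxa3-N1 and 80 in Foxa2-C3. The next, chr10:121239298-121239954, ranked between 7 (Foxa3-N2) and 276 (Foxa3-C1). The other 3 of the 5 best such regions, chr10:120284275-120284895, chr15:54964623-54965262 and chr13:99246196-99246856, also lacked Foxa1-N3 alone. These 5 were chosen for their strength in the 7 other lists, and their ranks there reached from 7 to 520.

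Peaks in shared regions were wider than the other peaks of the same list in every construct. Their median width was 320 bp against 294 bp in Foxa1-N3, 441 against 349 bp in Foxa3-C2, 529 against 404 bp in Foxa1-C3, 531 against 396 bp in Foxa2-N3, 570 against 405 bp in Foxa3-N1, 582 against 413 bp in Foxa3-N2, 590 against 445 bp in Foxa3-C1 and 647 against 456 bp in Foxa2-C3. Width moved with score. Over the 529 regions the Spearman correlation of a peak's width with its score ran from 0.51 in Foxa3-N1 to 0.71 in Foxa1-C3, as a description over regions that share each library.

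Among strong peaks the widths lay closer together in 7 of 8 lists. Within the 500 strongest peaks of each list, shared regions had medians of 357 bp (Foxa1-N3) to 682 bp (Foxa2-C3), and the other peaks 323 bp (Foxa1-N3) to 648 bp (Foxa2-C3). Shared peaks were the wider ones in all 8 lists, by 7.5 bp in Foxa3-C1 up to 49 bp in Foxa3-N2. In Foxa1-N3 the gap was 34 bp there against 26 bp over the whole list. Shared peaks crowd the best ranks within the 500 too, so these peaks were not matched by rank. Within the 100 strongest the order was mixed: the others were wider in Foxa3-C1 (790 against 722.5 bp), Foxa3-C2 (596 against 523 bp), Foxa2-N3 (613 against 594 bp) and Foxa2-C3 (717 against 710 bp). The 5 widest shared regions lay at chr4:136676453-136678160 (1708 bp, 11 peaks), chr8:63875262-63876722 (1461 bp), chr5:99665362-99666796 (1435 bp, 10 peaks), chr6:92344429-92345855 (1427 bp, 11 peaks) and chr12:92265138-92266528 (1391 bp). Of these, 3 held more than 1 peak of some list, and the other 2 had peaks whose midpoints lay 423.5 and 377 bp apart. The 5 narrowest, on chromosomes 4, 5, 6 and 11, were 502 to 522 bp wide and lay in the weaker part of the set, with mean ranks among the 529 from 338 to 444.

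**Figure D2:**
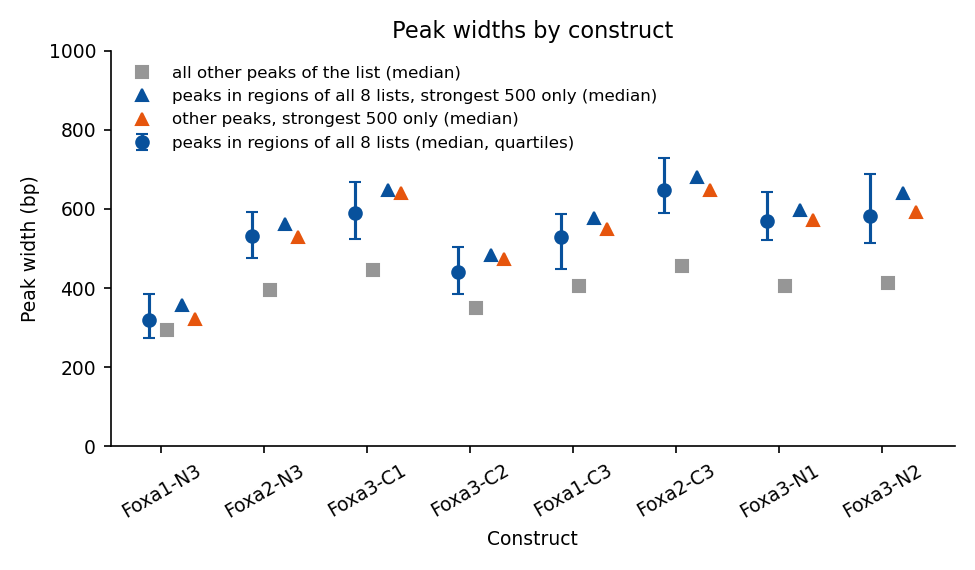
Peak width in bp by construct: blue circles give the median and quartiles for peaks in regions of all 8 lists, grey squares the median of all other peaks, and triangles the medians among the 500 strongest peaks (blue for shared regions, orange for the others). The circles lie above the grey squares in all 8 constructs, while the triangles of each construct lie within 49 bp of each other.

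To compare constructs whose lists differ in length, each shared region was ranked by its strongest peak among the 529 in each list, from 1 (strongest) to 529; these shared-set ranks are used from here on. Such ranks are relative, so a region moves up only as others move down. A small core was strong with every chimera. There were 22 regions at 132 or better in all 8 constructs, and 6 regions whose list rank was 100 or better throughout. Of these 6, the one at chr14:100044840-100046154 had shared-set ranks of 28 in Foxa1-N3, 12 in Foxa2-N3, 5 in Foxa3-C1, 8 in Foxa3-C2, 2 in Foxa1-C3 and Foxa3-N1, 5 in Foxa2-C3 and 1 in Foxa3-N2. The region at chr3:113242292-113243256 ranked from 1 in Foxa2-C3 to 29 in Foxa2-N3. The third, chr4:56114986-56115750, ranked from 4 in Foxa3-N1 to 50 in Foxa2-C3. These 3 also had the smallest, the second smallest and, jointly, the third smallest spread of ranks over the constructs, at 27, 28 and 46 places. Ranks end at 1, so a mean rank near the top leaves little room for spread. The others of the 6 lay at chr3:57148001-57148717 (27 to 73, a spread of 46 as well), chr6:31456370-31457135 (4 to 79) and chr9:61751839-61752558 (3 to 75).

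Away from the top, a steady place was uncommon. The region at chr11:67553664-67554341 came closest, at 115 in Foxa1-N3, 125 in Foxa2-N3 and Foxa3-C1, 120 in Foxa3-C2, 72 in Foxa1-C3, 111 in Foxa3-N1, 102 in Foxa2-C3 and 115 in Foxa3-N2. Only 4 regions ranked 397 or worse with every construct: chr10:3172350-3173325, chr9:74122575-74123145, chr6:90935812-90936447 and chr9:55112266-55112995, with mean ranks of 485, 482.5, 467 and 451. The median region spread over 297 places from its best to its worst construct (quartiles 214 and 360), and 159 regions (30.1%) were at 132 or better in 1 construct and at 397 or worse in another.

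Among the regions with the best mean rank, 3 had far better shared-set ranks in the 7 other constructs than in Foxa3-N2. Their Foxa3-N2 peaks were not weak: in the order below, they ranked 310, 598 and 497 in the full list of 16543. Their scores there lay above 93.6, the median of the shared regions in that list. The region at chr17:35848385-35849167 ranked 2 to 5 in 7 constructs and 152 in Foxa3-N2. At chr4:3734014-3734959 the ranks were 1 in Foxa2-N3, Foxa3-C2 and Foxa1-C3, 2 in Foxa3-C1, 3 in Foxa1-N3, 6 in Foxa3-N1, 13 in Foxa2-C3 and 214 in Foxa3-N2. At chr14:47449566-47450540 they were 1 in Foxa1-N3 and Foxa3-C1, 3 in Foxa2-N3, Foxa3-C2 and Foxa1-C3, 44 in Foxa3-N1, 16 in Foxa2-C3 and 195 in Foxa3-N2. The remaining 2 of the 10 with the best mean rank that have not been named, chr1:87706987-87708019 and chr1:75334241-75334981, did not follow this: they ranked 11 and 39 in Foxa3-N2 and had their worst ranks in Foxa3-C1 (81) and Foxa1-N3 (122).

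Constructs ordered the shared regions only loosely alike. Over the 28 pairs of constructs the Spearman correlation of peak scores across the 529 regions had a mean of 0.48 and ran from 0.21 (Foxa3-C1 with Foxa3-N2) to 0.74 (Foxa2-C3 with Foxa3-N2). It averaged 0.57 (SD 0.105 over 12 pairs) between constructs of the same terminal layout and 0.42 (SD 0.105 over 16 pairs) between layouts. Within the Foxa3 C-terminal group the mean was 0.64 over 6 pairs, and within the Foxa3 N-terminal group it was 0.51 over 6. Pairs whose DNA-binding domains were of one class averaged 0.47 against 0.49 for the others, and pairs with the same partner protein likewise 0.47 against 0.49. These averages by class and partner were not balanced for layout, so no order can be taken from them. Within a layout, pairs of the same class had 0.49, 0.66, 0.68 and 0.61, and the others ran from 0.42 to 0.74. By partner, pairs within a layout ran from 0.42 to 0.74 with the same partner and from 0.46 to 0.69 without. Pairs of constructs share libraries, so the means above are descriptions with no p. That the layouts differ in the antibody as well applies here too.

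Pairs of constructs that differed by design only in the DNA-binding domain had unlike correlations. With both terminal domains and the antibody held fixed, the correlation was 0.74 between Foxa2-C3 and Foxa3-N2, 0.61 between Foxa1-C3 and Foxa3-N1, 0.53 between Foxa2-N3 and Foxa3-C2 and 0.42 between Foxa1-N3 and Foxa3-C1. The median region moved by 67, 75, 94 and 101 places in these pairs. With 1 library per construct, the likeness of replicate libraries of the same construct is unknown. List lengths within these pairs differed too, such as 956 peaks in Foxa1-N3 and 7533 in Foxa3-C1. The part of the DNA-binding domain in these correlations was not tested. Foxa3-C1 and Foxa3-C2, which share the DNA-binding domain and the N-terminal domain, had a correlation of 0.66 and a median move of 75 places. Within its own layout Foxa3-N1 had 0.61 with Foxa1-C3 and with Foxa3-N2 and 0.49 with Foxa2-C3. Across layouts it had 0.58 with Foxa3-C2, 0.56 with Foxa2-N3, 0.48 with Foxa1-N3 and 0.46 with Foxa3-C1.

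**Figure D3:**
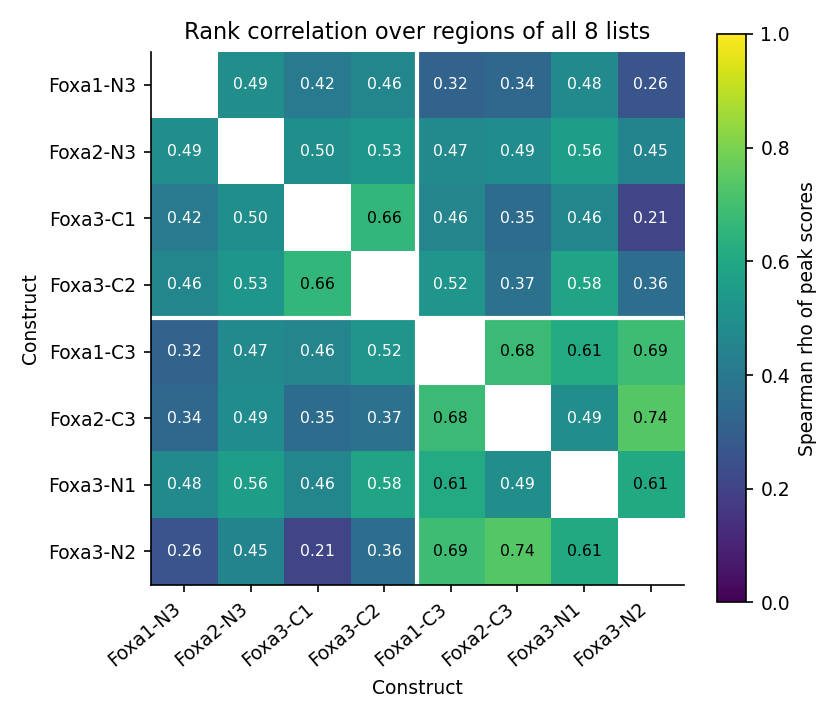
Spearman rho of the authors' peak scores over the 529 shared regions for each pair of constructs, with the color scale from 0 to 1. White lines part the 4 constructs with the Foxa3 N-terminal domain (top, left) from the 4 with the Foxa3 C-terminal domain. The highest value is 0.74 (Foxa2-C3 with Foxa3-N2) and the lowest 0.21 (Foxa3-C1 with Foxa3-N2).

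The 10 regions with the largest rank shifts moved over 487 to 521 places. The largest shift was at chr2:167503083-167503792, which ranked 6 in Foxa3-C2, 10 in Foxa3-C1, 31 in Foxa2-N3, 242 in Foxa1-C3, 332 in Foxa1-N3, 479 in Foxa3-N1, 501 in Foxa3-N2 and 527 in Foxa2-C3. The next, chr11:65633040-65633842, whose shift of 510 was tied with that of chr6:113960678-113961948, ranked 6 in Foxa3-C1, 9 in Foxa3-C2, 17 in Foxa1-N3, 219 in Foxa2-N3, 317 in Foxa1-C3, 428 in Foxa3-N1, 434 in Foxa2-C3 and 516 in Foxa3-N2. Here all 4 constructs with the Foxa3 N-terminal domain stood above the other 4. The region at chr5:75294750-75295502 was strong with Foxa3-C1 (12) and Foxa3-C2 (81) and ranked 267 to 519 in the other 6. At chr1:181971884-181973008 the 4 constructs of the Foxa3 N-terminal group ranked 14 to 96 and Foxa3-N1 125, while Foxa1-C3, Foxa3-N2 and Foxa2-C3 ranked 324, 448 and 507. By these ranks the layouts did not overlap there either. By list rank over list length they did, with Foxa1-N3 at 110 of 956 and Foxa3-N1 at 166 of 7625. The region at chr17:5569154-5569845 ranked 19 in Foxa1-N3, 117 in Foxa3-C2, 135 in Foxa3-C1, 136 in Foxa3-N1, 259 in Foxa2-N3, 473 in Foxa1-C3, 499 in Foxa2-C3 and 506 in Foxa3-N2. In these 5 regions and in 2 of the other 5, Foxa2-C3 and Foxa3-N2, which share the Foxa2 antibody, both ranked 434 or worse. The regions were chosen by these same ranks and the cut of 434 was taken from them. How many of all 529 do so was not counted. The 2 constructs also had the highest correlation of all pairs, 0.74.

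The other 5 of the 10 were of several kinds. At chr8:35519402-35520156 Foxa3-N2 ranked 14, Foxa1-C3 91, Foxa2-C3 132 and Foxa3-N1 308, all above Foxa2-N3 (329), Foxa3-C1 (334), Foxa1-N3 (409) and Foxa3-C2 (511). At chr6:113960678-113961948 Foxa1-N3 alone was high, at 18, with Foxa3-C2 at 252 and the other 6 between 420 and 528. At chr7:139500045-139501077 Foxa2-N3 alone was low, at 517, with the other 7 between 27 and 311. The region at chr4:149938325-149938922 ranked 34, 104, 122 and 191 in Foxa3-C1, Foxa3-C2, Foxa2-N3 and Foxa3-N1 and 453 to 523 in the other 4. The last of the 10, chr6:98970888-98971514, ranked 14 in Foxa2-N3 and 502 in Foxa1-C3. These places depend on the scale: when list rank was divided by list length, 1 of the 10 stayed among the 10 largest shifts (chr4:149938325-149938922, at place 2), and the others fell to places 43 to 264.

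**Figure D4:**
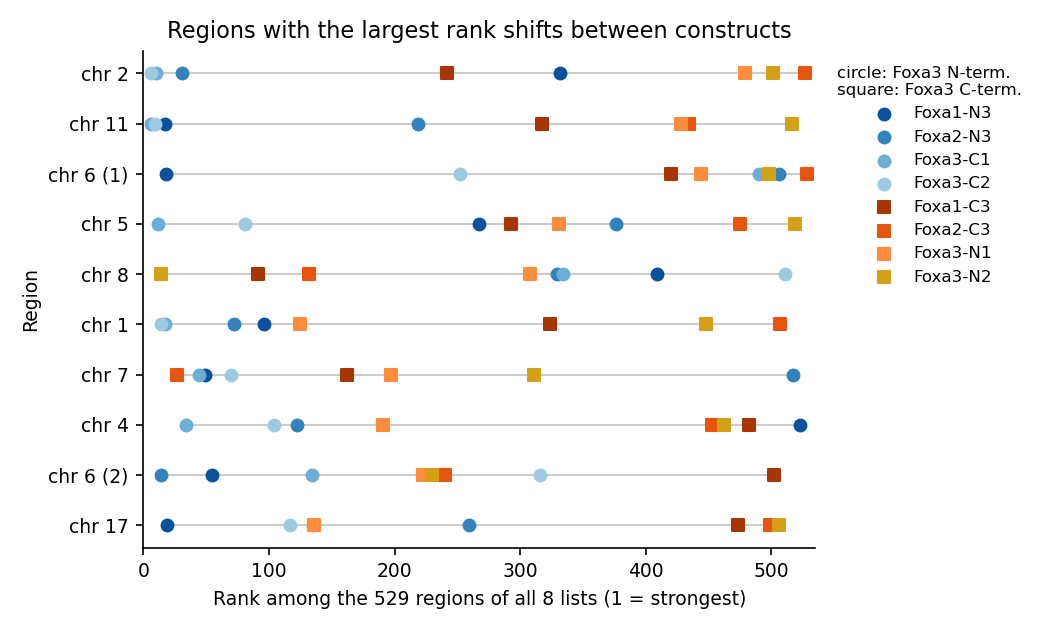
Rank among the 529 shared regions (1 is the strongest) in each of the 8 constructs for the 10 regions with the largest rank shifts, 1 row per region, named by chromosome; circles mark the Foxa3 N-terminal domain and squares the Foxa3 C-terminal domain. Circles and squares do not overlap on chromosomes 11 and 1 (circles better) and on chromosome 8 (squares better), while the first row of chromosome 6 and that of chromosome 7 each show 1 construct far from most others.

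For each construct the region furthest from the median rank of the other 7 was taken in either direction; other constructs could share its side. Upward, Foxa3-N1 ranked 53 at chr3:31775818-31776470 where the median of the other 7 was 429, and Foxa2-N3 ranked 94 at chr13:93303490-93304131 where that median was 441. Foxa1-C3 ranked 57 at chr15:94491002-94491719 (median of the others 380), where Foxa3-C1 ranked 55 as well. Foxa2-C3 ranked 117 at chr11:22337295-22338114 (others 429), and Foxa3-N2 ranked 127 at chr15:98572905-98573766 (others 452). In both of these the construct that shares the Foxa2 antibody was also above the other 6, at 112 in Foxa3-N2 and 187 in Foxa2-C3. For Foxa3-C1 (24) and Foxa3-C2 (99) the region was the same, chr6:99123223-99124241, with a median of 450 in the other 7 for each and with Foxa1-N3 at 61.

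Downward, Foxa2-C3 ranked 426 at chr10:86307917-86308723, whose median in the other 7 was 11: the ranks there were 2 in Foxa2-N3, 5 in Foxa3-C2, 10 in Foxa1-C3, 11 in Foxa1-N3 and Foxa3-N1, 23 in Foxa3-C1 and 65 in Foxa3-N2. Foxa1-N3 ranked 480 at chr6:37568742-37569728 (median of the others 72), Foxa3-C1 455 at chr6:5227680-5228461 (59), Foxa3-N1 414 at chr3:65448365-65449248 (72), Foxa3-C2 504 at chr15:83282038-83282632 (162) and Foxa3-N2 527 at chr7:142091950-142092559 (138). In the last of these Foxa2-C3 was low as well, at 488, and so was Foxa1-C3, at 434. Extremes were spread over all constructs. Foxa3-N2 held the best rank of the 8 in 85 regions, Foxa1-N3 in 83 and Foxa3-N1 in 51, the fewest, while the worst rank fell to Foxa1-N3 in 86 regions and to Foxa3-N2 in 54, the fewest.

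Some shared regions ranked better in all constructs of one terminal layout than in all of the other. The 4 constructs with the Foxa3 N-terminal domain stood above the other 4 in 27 of the 529 regions (5.10%), and the reverse held in 28 (5.29%). Among the 5407 regions with a peak in at least 4 lists, ranked the same way with missing peaks placed after the end, the shares were 1.55% and 10.2%, where list length enters through the missing peaks. The balance depended on the scale. With plain list ranks the numbers were 37 and 18, and with list rank divided by list length 8 and 62. On all 3 scales the Foxa3 N-terminal group was higher in 6 regions and the Foxa3 C-terminal group in 16, and no overall direction can be taken from these counts. By rank within the set without Foxa1-N3, among 1411 regions, the counts were 94 (6.66%) and 111 (7.87%). Fewer constructs are compared there, which makes non-overlap easier to reach, so these shares are not a like comparison with those of the 529.

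Single regions of both kinds held on the 3 scales. For the Foxa3 N-terminal domain the widest gap between the groups, 205 places, was at chr6:99123223-99124241, where Foxa3-C1 ranked 24, Foxa1-N3 61, Foxa3-C2 99 and Foxa2-N3 245, against 450 in Foxa1-C3, 479 in Foxa2-C3, 481 in Foxa3-N2 and 487 in Foxa3-N1. At chr14:10620938-10621556 the 4 ranked 175 to 355 against 503 to 519. At chr3:141694554-141695133 Foxa1-N3 ranked 44, Foxa2-N3 76, Foxa3-C2 110 and Foxa3-C1 122, against 264 in Foxa3-N1, 287 in Foxa3-N2, 407 in Foxa1-C3 and 501 in Foxa2-C3. So the high group lay within the first 122 places at chr3:141694554-141695133 but in middle places at chr14:10620938-10621556. For the Foxa3 C-terminal domain the widest gap was at chr3:73477113-73477770, where Foxa2-C3 ranked 7, Foxa3-N2 15, Foxa3-N1 47 and Foxa1-C3 123, against 286 in Foxa2-N3, 338 in Foxa3-C2, 343 in Foxa1-N3 and 349 in Foxa3-C1. At chr18:6275939-6276660 the 4 ranked 58 to 199 against 358 to 437, and at chr9:75084525-75085233 they ranked 44 to 153 against 284 to 480.

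The other factors gave fewer such regions. All 4 constructs with the DNA-binding domain of Foxa1 or Foxa2 stood above the 4 with that of Foxa3 in 10 shared regions (1.89%, against 0.259% of the regions with at least 4 lists), and the reverse held in 3 (0.567%, against 1.13%). Missing peaks were again placed after the end. A region with no Foxa1-N3 peak therefore cannot be counted where Foxa1-N3 is on the higher side. The shares of regions with at least 4 lists are thus not a like comparison. With plain list ranks the numbers were 13 and 0, and with list rank over list length 1 and 8. Ranked within the set without Foxa1-N3, again with fewer constructs compared, the numbers were 38 (2.69% of 1411) and 22 (1.56%). Only chr19:55594624-55595272 held on all 3 scales, with ranks of 42 in Foxa1-N3, 87 in Foxa2-N3, 120 in Foxa2-C3 and 135 in Foxa1-C3 against 235 in Foxa3-C1, 321 in Foxa3-N1, 326 in Foxa3-N2 and 344 in Foxa3-C2. The next by gap, chr12:75302459-75303053 and chr5:147035438-147036035, overlapped on the scale of list length. In the reverse direction the widest gap was 47 places, at chr15:59437780-59438822, with 204 to 288 against 335 to 449; chr17:33925479-33926257 (gap 31) and chr10:24792427-24793125 (gap 3) followed.

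By partner protein, constructs made with Foxa1 stood above those made with Foxa2 in 3 regions (0.567%, against 0.222% of the regions with at least 4 lists), and the reverse held in 8 (1.51%, against 1.92%). The same limit from missing peaks holds for these shares of regions with at least 4 lists. With plain list ranks the numbers were 3 and 3, with list rank over list length 0 and 6, and none held on all 3 scales. Ranked within the set without Foxa1-N3, again with fewer constructs compared, the numbers were 21 (1.49% of 1411) and 32 (2.27%). The widest gaps were 82 places at chr9:63326824-63327436 for Foxa1 (179 to 282 against 364 to 474) and 46 places at chr6:5187144-5187973 for Foxa2 (12 to 156 against 202 to 446). At the latter Foxa3-N2 ranked 12 and Foxa2-N3 90, and Foxa1-N3 was the lowest. The next 2 by gap in each direction, chr4:150263970-150264576 and chr2:115758866-115759400 for Foxa1 and chr2:93563404-93564038 and chr17:81828324-81829077 for Foxa2, had gaps of 27 to 37 places.

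Constructs of one N-terminal domain, and so of one antibody, were also set against the remaining 6, a comparison chosen after the data had been seen. Foxa2-C3 and Foxa3-N2 (Foxa2 antibody) stood above all others in 44 shared regions (8.32%, against 9.25% of the regions with at least 4 lists) and below all others in 33 (6.24%, against 1.55%). Foxa1-C3 and Foxa3-N1 (Foxa1 antibody) stood above all others in 13 (2.46%, against 4.12%) and below them in 13 (2.46%, against 0.555%). Missing peaks limit the shares of regions with at least 4 lists here too. A region with no Foxa1-N3 peak cannot be counted as having either pair below all others. The direction again followed the scale: the Foxa2-antibody pair was above in 30 and below in 81 regions by plain list rank, and above in 159 and below in 2 by list rank over list length. For the Foxa1-antibody pair these numbers were 11 and 10, and 7 and 1. Ranked within the set without Foxa1-N3, with fewer constructs compared, the Foxa2-antibody pair was above in 149 (10.6% of 1411) and below in 130 (9.21%). The Foxa1-antibody pair was above in 51 (3.61%) and below in 44 (3.12%) there. On all 3 scales the Foxa2-antibody pair was above in 25 regions and below in 2, and the Foxa1-antibody pair was above in 2 and below in 0. Such a count cannot exceed that of any single scale, and by list rank over list length the Foxa2-antibody pair was below in only 2. Its lists are the longest, with 13715 peaks (Foxa2-C3) and 16543 peaks (Foxa3-N2). No overall direction can be taken from these counts either.

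Shared regions were spread over all 20 chromosomes with peaks, but were scarce on the X chromosome. The X chromosome held 569 merged regions, of which 2 (0.351%; 95% Wilson interval 0.096 to 1.27%) carried all 8 lists, against 527 of 24430 (2.16%) on the autosomes. Single autosomes ran from 1.49% on chromosome 2 (27 of 1816; 1.02 to 2.15%) to 3.04% on chromosome 19 (23 of 756; 2.04 to 4.52%). The X value lay below that of every autosome, and its interval ended under the lowest of these values. It still overlapped the intervals of some autosomes, such as chromosome 2 (from 1.02%) and chromosome 15 (from 0.92%). Intervals cover counting error only. Chromosome 6 held the most shared regions, 44 (8.32% of the set, against 6.69% of all merged regions). Chromosome 1 followed with 38 (7.18% against 7.37%) and chromosome 4 with 37 (6.99% against 5.76%). Per length spanned by peaks, chromosome 19 was the densest, with 39.7 shared regions per 100 Mb. Chromosome 6 followed with 30.1 and chromosome 13 with 28.2, while chromosome 15 had 14.0 and X had 1.25. Merged regions of any kind were also densest on chromosome 19 (13.1 per Mb) and sparsest on X (3.56 per Mb).

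**Figure D5:**
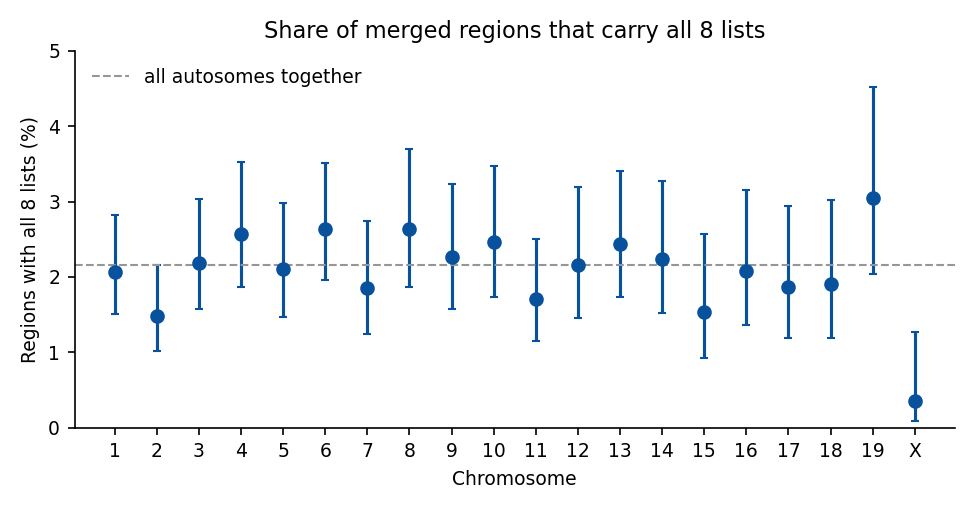
Percent of the merged regions of each chromosome that carry a peak of all 8 lists, with 95% Wilson intervals; the dashed line marks the autosomes together (2.16%). Chromosome X (0.351%) lies below all autosomes, which run from 1.49 to 3.04%.

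Most shared regions stood far from the next shared region, a distance that depends on the size of the set. The distance between neighbours on a chromosome had a median of 2.52 Mb over 509 neighbouring pairs, with quartiles of 0.626 and 6.29 Mb. Without the Foxa1-N3 list, which left 1411 regions, the median was 0.723 Mb. Of the 529, 118 regions (22.3%) had another shared region within 100 kb. Over all 24999 merged regions the median distance between neighbours was 26752 bp. Counting merged regions of any kind, shared regions were not isolated. Another region lay within 10 kb of 61.8% of them, against 58.6% of regions of exactly 7 lists and 48.8% of all regions. The longest stretch between neighbouring shared regions, on chromosome 10 from 40243442 to 82704807, held no shared region. Chains of shared regions within 100 kb of each other were short: 57 chains held 2 or more and 4 chains held 3, the most found. The chains of 3 spanned chr9:102869221-102899046, chr1:81714620-81795684, chr13:34299402-34391761 and chr4:71721747-71860307. The chain on chromosome 9 spanned 29826 bp, and mean ranks within it went from 39.3 to 352, the widest range of the 4.

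The 5 closest pairs were compared construct by construct. The 2 shared regions at chr6:9334093-9334855 and chr6:9335260-9336028 lay 404 bp apart, and the first ranked better in all 8 constructs (mean rank 269 against 384). At chr8:46612708-46613658 and chr8:46614186-46615264, 527 bp apart, the first ranked better in 2 of 8. At chr4:108100181-108100983 and chr4:108102045-108102950, 1061 bp apart, both were strong (mean ranks 85.9 and 55.6), and the first ranked better in 3 of 8. The next pairs were 2503 bp apart on chromosome 9 (chr9:102869221-102870068 and the region ranked last in Foxa1-N3) and 2915 bp apart on chromosome 16 (chr16:97619417-97620059 and chr16:97622975-97624004). In these the first ranked better in 7 and in 8 constructs.

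The 4a3_DA1 list was not used to choose the shared regions. Of the 529, 3 met one of its 698 peaks (0.567%; 95% Wilson interval 0.193 to 1.65%), beside 0.868% of all regions and 0.675% of the regions of exactly 7 lists (0.327 to 1.39%). The share was highest, 1.49%, in regions of 3 lists (1.08 to 2.05%). The 3 were chr17:35848385-35849167, the region ranked 2 to 5 in all constructs but Foxa3-N2, then chr5:99665362-99666796, among the 5 widest, and chr17:44375948-44376654, which ranked from 72 in Foxa3-N2 to 425 in Foxa2-N3. The interval of the shared regions held both the share of all regions and that of the regions of 7 lists.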

How the data were processed

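ChIP-seq of 9 libraries was used through the peak lists the authors deposited, 1 per library; BWA 0.6.2, MACS2 2.1.0 and bedtools 2.16.2 with the build mm9 stand in the submitters' processing notes. For caller settings, filters and use of the inputs nothing was found in the labels or headers. The deposited score of each peak is of unstated kind (lowest 5.11) and served to rank or filter peaks within a list. An alternative setting also cut all lists at the pooled median score of 19.2, which takes scores as alike across lists. Samples were grouped by title. Starts were converted to count from 1.

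Peaks of the 8 Foxa lists sharing 1 bp were merged; bedtools 2.31.1 gave the same 24999 regions, and the routines were tested on simulated data. Python 3.11.15, pandas 2.3.3, numpy 2.4.6, scipy 1.17.1 and matplotlib 3.10.9 were used. Regions were named by fixed orders: best mean rank, largest and smallest shift, widest gap by factor, width, closeness and edge of the rule. Members and rules were chosen with earlier results of these data known. No test was planned, because the peak calls chose the regions. Peaks reached beyond the last gene of the GRCm38 gene table on 8 of 20 chromosomes, so genes and sequences of that build were not used here.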

Additional observations from a re-analysis of the deposited data

How the results depend on the processing

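The set of 529 regions about kept its size when peaks within 1 kb were merged (531) and when midpoints had to lie within 200 bp (494). Requiring 1 base under all 8 lists (529) could change nothing, since every shared region has such a base. The set shrank to 122 with scores above the pooled median and to 148 with lists cut to the 956 strongest peaks. The pooled median, 19.2, lay above the median score of shared regions in Foxa1-N3 (15.1). In the other lists the median score of shared regions ran from 29.1 (Foxa3-C2) to 110 (Foxa2-C3). That cut therefore fell hardest on the Foxa1-N3 peaks of the set. Leaving out 1 construct gave 532 to 1411, the highest without Foxa1-N3. Regions whose ranks did not overlap between layouts, 27 with the Foxa3 N-terminal and 28 with the Foxa3 C-terminal domain higher, numbered 6 and 7 with scores above the pooled median and 6 and 6 with equal lists. With 1 construct left out they numbered 30 to 94 and 34 to 111, the highest without Foxa1-N3, where the set was largest; as shares of the regions left they were 5.6 to 8.57% and 6.34 to 9.51%, the highest without Foxa3-N1 and without Foxa3-C2. Leaving out a construct changes both the set and the number of constructs compared, and the parts of these were not told apart. With list rank over list length they numbered 8 and 62, and with plain list rank, added after the data were seen, 37 and 18. By DNA-binding domain (10 for Foxa1 or Foxa2, 3 for Foxa3) the numbers were 4 and 0 above the pooled median, 2 and 0 with equal lists, 1 and 8 over list length, 13 and 0 by plain list rank, and 13 to 38 and 4 to 22 with 1 construct left out. By partner (3 for Foxa1, 8 for Foxa2) they were 0 and 1, 0 and 2, 0 and 6, 3 and 3, and 4 to 21 and 10 to 32. The antibody pairs, also added later, moved as widely. The median distance between neighbours (2.52 Mb) was 11.3 Mb above the pooled median, 6.73 Mb with equal lists and 0.723 to 2.51 Mb with 1 construct left out, the lowest without Foxa1-N3. The mean correlation stayed between 0.54 and 0.59 within and between 0.38 and 0.45 across layouts under all alternatives run for it. The share meeting 4a3_DA1 stayed between 0.405 and 0.993%. Library depth is unknown and limits what absence from a list can show.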
